A study of Mus musculus with 24 samples.

Results

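The RBM genes are named for the RNA-binding motif that their proteins carry. The genes described here are those whose symbol is Rbm followed by a number, other than Rbm25, and they numbered 38 of the 25190 genes in the organoid table and 37 of the 18440 genes in the inner ear table. A total of 37 were in both tables, and Rbm3os, a long non-coding RNA opposite Rbm3, was in the organoid table only. Of the 38, 36 code for protein per RefSeq, and the others are Rbm3os and the pseudogene Rbm3-ps. After the filter on low counts 37 of 38 were tested in the organoids and 36 of 37 in the inner ear, and Rbm44 was left out of both.

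RNA was sequenced in bulk from 24 mouse samples. The 12 organoid libraries (n = 3 per group) came from cultures grown from cochlear epithelia of P1–2 mice, newborn pups, and were treated with an RBM25 knockdown plus TNF, with the RBM25 knockdown, with tumour necrosis factor (TNF-α, a cytokine of inflammation, written TNF here), or were controls. The 12 inner ear libraries (n = 4 mice per age) came from the soft tissue inside the bone of the inner ear of male C57BL6/J mice aged 3, 11 and 20 months. All samples carry the genotype label WT, and all organoids were grown and differentiated with small molecules that the protocol names, CHIR99021 (a Wnt pathway activator) and LY411575 (a Notch pathway inhibitor). The knockdown used a lentivirus according to the protocol, whereas the sample titles call it a knockout, and neither the control vector nor the TNF dose and duration is stated in the labels. The labels do not tell whether replicate organoid libraries are independent cultures, so p-values here measure only the spread between these libraries, which may be technical.

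RNA-binding motif proteins take part in most steps of an mRNA's life. Some sit in the spliceosome or choose between splice sites, others belong to the complex that marks exon junctions, to the m6A methylation machinery, to the adaptors that bring nuclear RNA to the exosome, or to the nucleolus, where rRNA is processed. A few are made mainly in particular tissues, and one of these, RBM24, is known in mouse as a splicing regulator of heart, muscle and inner ear hair cells. RBM25, the protein knocked down here, binds exonic RNA and U1 snRNP components and affects the choice of 5′ splice site.

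The sequences upstream of 3 genes are shown. Rbm24 and Rbm11 had the largest rise and the largest fall of the members under the knockdown. Rbm43, chosen after its values and its motif matches were seen, was 1 of 6 members raised by TNF both with and without the knockdown, and Rbm20, Rbm3-ps, Rbm3 and Rbm38 had larger changes with TNF alone. Each is given 5′ to 3′ on the gene's strand, from RefSeq on GRCm38.p6, and ends at the base before the annotated gene, which leaves 52 bases for Rbm24, 203 for Rbm11 and 250 for Rbm43. Capitals mark matches, on either strand, to GGGA and CC with any 4 bases between them (a form of the NF-κB site), to a pair of GAAA with any 2 bases between them (a form of the interferon-stimulated response element) or TATAAA (the TATA box), and TGACGTCA (the cyclic AMP response element) was searched too. Where matches touch or overlap the capitals run together.
Rbm24, chr13:46418050-46418101, plus strand: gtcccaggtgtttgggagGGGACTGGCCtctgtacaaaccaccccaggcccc
Rbm11, chr16:75592641-75592843, plus strand: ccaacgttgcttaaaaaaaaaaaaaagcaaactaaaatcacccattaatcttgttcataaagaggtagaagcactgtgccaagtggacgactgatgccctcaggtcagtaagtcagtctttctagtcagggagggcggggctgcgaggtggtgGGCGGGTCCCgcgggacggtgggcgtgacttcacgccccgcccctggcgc
Rbm43, chr2:51935164-51935413, minus strand: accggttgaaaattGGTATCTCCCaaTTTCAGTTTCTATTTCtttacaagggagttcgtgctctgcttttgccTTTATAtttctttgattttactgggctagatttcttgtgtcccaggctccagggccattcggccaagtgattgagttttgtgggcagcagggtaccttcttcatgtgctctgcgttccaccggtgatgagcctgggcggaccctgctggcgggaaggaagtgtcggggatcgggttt

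Counted over the 250 bases before each annotated start, the NF-κB form was in 9 of 34 member promoters and in 17.6% of all 32851 promoters in the table. The interferon form was in 3 of 34 and in 2.98% of all, the TATA box in 4 of 34 and in 12.4% of all, and the cyclic AMP form in 0 of 34 and in 1.55% of all. The window of Rbm43 held 1 match to the NF-κB form, 2 to the interferon form and 1 to the TATA box. These 34 promoters belonged to 29 members. Member promoters had a median GC content of 59.4% and a median of 18 CpG pairs, against 52.4% and 6 for all promoters. A match describes the letters only and is not evidence of a bound factor.

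The libraries held 33802411 to 37048422 counts in the organoids and 30599012 to 38451292 in the inner ear. The biological coefficient of variation, the spread between replicates beyond counting error, was 8.04% in the organoids and 19.8% in the inner ear. Values below are in CPM, counts scaled to a common library size, in replicate order. Fold changes are on the log2 scale with their standard errors, and adjusted p-values are those of edgeR's quasi-likelihood test with Benjamini-Hochberg adjustment over all genes tested, with 0.05 as the threshold for a call. Exons of 17 members overlap those of other genes, and reads in shared exons cannot be assigned with certainty. Because the libraries are unstranded, this holds for genes on the opposite strand as well as on the same strand. The largest overlaps were in Rbm42, where 75.4% of exon bases lie in Gm21982, and Rbm4, where 60.5% lie in Gm21992. Both of these are on the same strand. Reads of the near copies Rbm12b1 and Rbm12b2, Rbm4 and Rbm4b, and Rbm3 and Rbm3-ps may also have been split or lost in counting.

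Levels across the family covered a wide range (the plot of FPKM by gene). In control organoids 17 of 38 members were above 10 FPKM, 15 were between 1 and 10, and 6 were below 1. The highest levels per length were those of Rbm5, at 84.5 ± 1.61 FPKM, and Rbm39, at 55.0 ± 0.783 FPKM (SD, n = 3). Rbm42 followed at 36.6 ± 1.23 FPKM and Rbm17 at 32.9 ± 0.600 FPKM. All 4 are splicing proteins found in most cells. In the inner ear at 3 months 13 of 37 members were above 10 FPKM, 20 were between 1 and 10, and 4 were below 1, with Rbm39 at 53.8 ± 5.45 FPKM and Rbm5 at 45.2 ± 8.14 FPKM (SD, n = 4). Rbm20 was at 0.399 ± 0.113 FPKM in control organoids and at 2.01 ± 0.163 FPKM in the inner ear at 3 months, in tables that were normalized separately. When members were put in order of level, the libraries of neighbours overlapped in 17 of 37 neighbouring pairs in control organoids and in 27 of 36 in the inner ear at 3 months.

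Rbm44, which is known from germ cells of mouse, had 0 counts in all but 1 organoid library, a knockdown library with 1 count, and at most 2 counts in any inner ear library. It was at or below the limit of 3 counts in every group, and no fold is given.

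**Figure D1:**
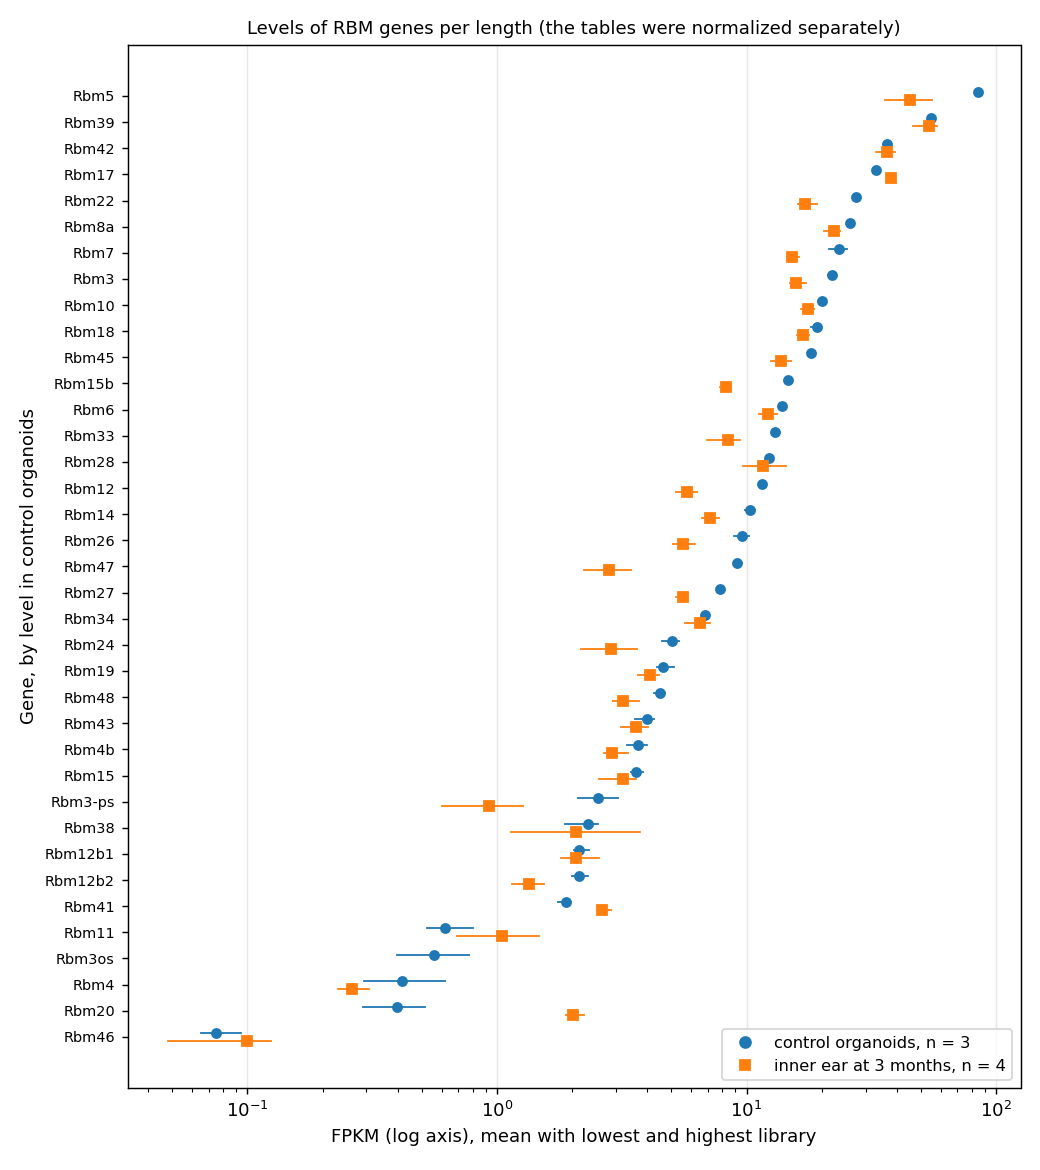
Mean FPKM (log axis) of each RBM gene in control organoids (circles, n = 3) and in the inner ear at 3 months (squares, n = 4), with lines between the lowest and highest library. Genes are in order of their level in control organoids, Rbm5 and Rbm39 are at the top, and Rbm44 is left out because all control organoid libraries listed it at 0.

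Rbm25 itself (chr12:83632208-83683127, plus strand, GRCm38.p6) was measured first to check the labels. It stood at 103, 122 and 108 CPM in organoids with the knockdown and TNF, 96.9, 94.2 and 92.7 CPM with the knockdown, 150.0, 163 and 173 CPM with TNF and 142, 148 and 144 CPM in controls. All 6 knockdown libraries were below all 6 others. The knockdown lowered it to 0.653 of the control level (log2 -0.61 ± 0.06, adjusted p = 1.01e-07) and, under TNF, to 0.684 of the level with TNF alone (log2 -0.55 ± 0.06, adjusted p = 4.61e-07). TNF alone moved Rbm25 by 0.16 ± 0.06 (log2, adjusted p = 0.0315), a call that was lost when TNF replicate 2 or 3 or control replicate 1 or 3 was left out, with an adjusted p of up to 0.103.

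The first question was whether other members stood higher once Rbm25 was lowered. Under the knockdown, Rbm24 and Rbm20 rose and 13 members fell: Rbm11, Rbm48, Rbm19, Rbm28, Rbm12b2, Rbm33, Rbm6, Rbm47, Rbm12, Rbm5, Rbm34, Rbm42 and Rbm22. So 2 of 37 members tested were higher, beside 24.4% of all genes tested, and 13 of 37, or 35.1%, were lower, beside 28.2% of all. The median change of the members was -0.13 on the log2 scale, against -0.03 over all 15888 genes. The other 22 members did not pass the test. With limma-trend on FPKM, under either pseudocount, 3 members were higher and 8 lower. The lowered share of members in edgeR is near the background of this comparison, in which 52.6% of all genes were called in either direction.

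The knockdown was also measured in the presence of TNF, in 6 libraries that share none with the comparison without TNF. Rbm24 and Rbm20 were again the members called higher, Rbm20 narrowly, 2 of 37 beside 25.4% of all genes tested. Another 12 members were lower, beside 26.9% of all, and 52.3% of all genes were called in either direction. The median change of the members was -0.09, against -0.01 over all genes. Of the members lowered in one setting or the other, 9 were lowered in both, which is 69.2% of the 13 without TNF and 75% of the 12 with TNF: Rbm11, Rbm12, Rbm12b2, Rbm19, Rbm28, Rbm33, Rbm48, Rbm5 and Rbm6. No member was called in opposite directions. The matching overlap over all genes tested was not counted, so these shares are not set against a background. Rbm22, Rbm34, Rbm42 and Rbm47 were called lower without TNF only, and Rbm12b1, Rbm27 and Rbm3 with TNF only, and for none of these 7 did the test of the difference between the 2 effects pass.

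**Figure D2:**
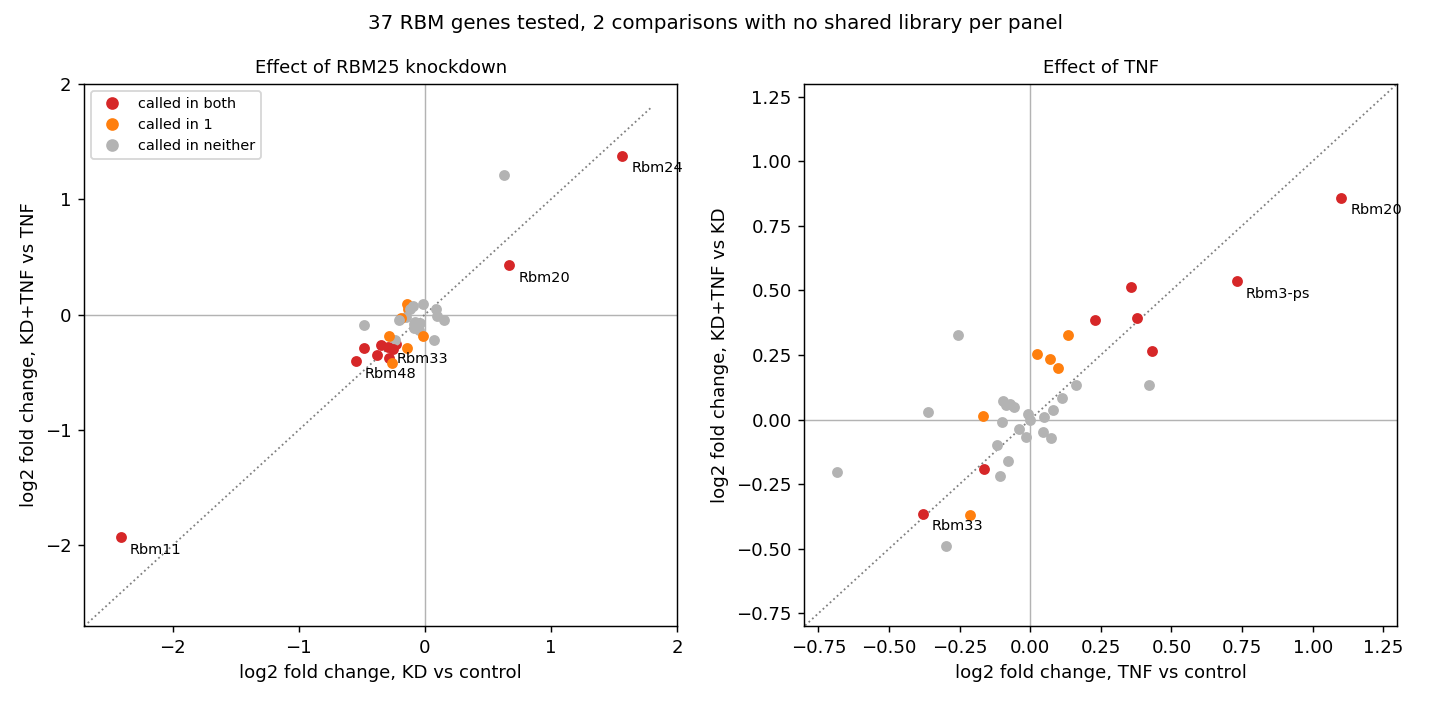
Log2 fold changes of the 37 RBM genes tested. The left panel sets the knockdown with TNF against TNF (vertical axis) beside the knockdown against control (horizontal axis), and the right panel sets TNF on the knockdown against the knockdown beside TNF against control. Each panel compares 2 comparisons that share no library, and the dotted line marks equal values. Rbm24 and Rbm20 lie at the upper right and Rbm11 at the lower left of the knockdown panel, and Rbm20 lies farthest to the upper right of the TNF panel.

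The next comparison took TNF alone. Against controls, Rbm20, Rbm3-ps, Rbm3, Rbm38, Rbm43 and Rbm34 were higher with TNF, 6 of 37 beside 23.3% of all genes tested. Rbm33, Rbm22 and Rbm5 were lower, 3 of 37 beside 24.2% of all, and 47.5% of all genes were called in either direction. The median change was -0.01, and that of all genes -0.02. In knockdown organoids TNF raised those 6 genes again together with Rbm19, Rbm42, Rbm8a and Rbm17, so 10 of 37 were higher, beside 22.8% of all genes tested. There Rbm12b1, Rbm33 and Rbm5 were lower, 3 of 37 beside 22% of all, and 44.8% of all genes were called in either direction. The 6 called higher in both settings make up 100% of the list without and 60% of the list with the knockdown. For TNF too the matching overlap over all genes was not counted.

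Against controls, organoids with both treatments had 8 of 37 members higher, beside 30.1% of all genes tested, and 14 lower, beside 30.5% of all, where 60.7% of all genes were called in either direction. Those higher were Rbm17, Rbm20, Rbm24, Rbm3, Rbm3-ps, Rbm34, Rbm43 and Rbm8a, and those lower were Rbm10, Rbm11, Rbm12, Rbm12b1, Rbm12b2, Rbm27, Rbm28, Rbm33, Rbm39, Rbm47, Rbm48, Rbm4b, Rbm5 and Rbm6. This comparison shares its libraries with those above. With limma-trend on FPKM, under either pseudocount, 10 were higher and 9 lower. Leaving out 1 library ended the calls of Rbm34 and Rbm39 in 5 of 6 fits, of Rbm47 and Rbm4b in 4, of Rbm8a in 3, and of Rbm27 and Rbm43 in 1.

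The test of interaction, in which the change under TNF without the knockdown is subtracted from that with it, called 0 of 37 members, beside 12.3% of all genes tested (7.54% higher and 4.81% lower). At an unadjusted p under 0.05 edgeR counted 4 members, and DESeq2 and limma-trend on FPKM also called 0 after adjustment. The smallest adjusted p was that of Rbm42 (log2 0.23 ± 0.08, adjusted p = 0.0754), which passed when replicate 2 of the knockdown with TNF was left out (adjusted p = 0.0097), and Rbm3 (log2 -0.17 ± 0.07, adjusted p = 0.112) passed without TNF replicate 3 (adjusted p = 0.0296).

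**Figure D3:**
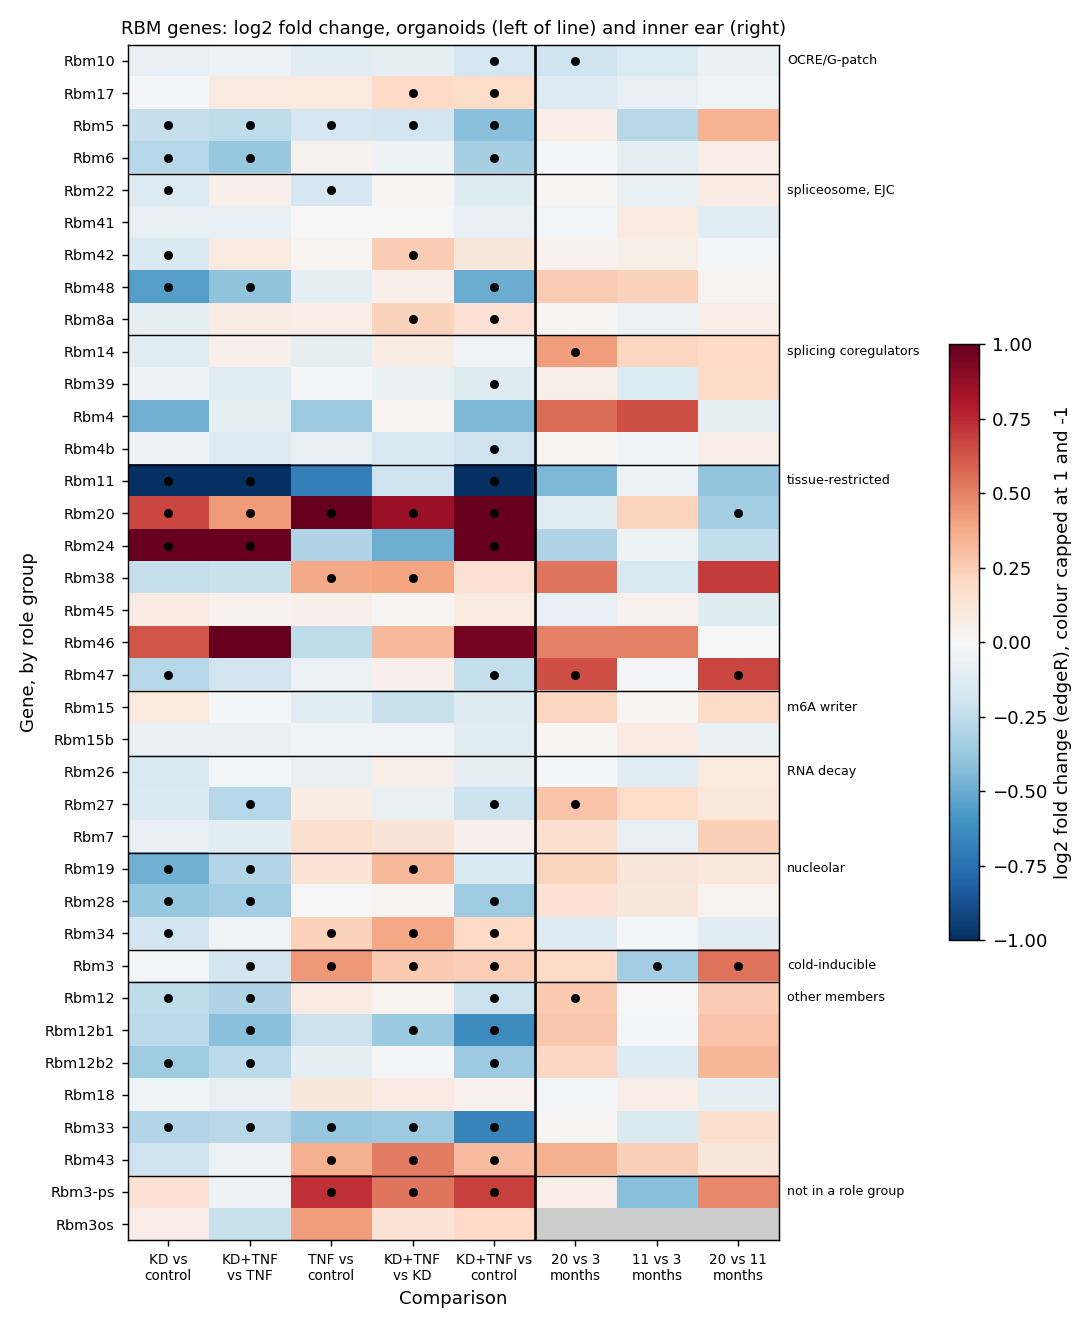
Log2 fold changes of the RBM genes (rows, grouped by role) in 5 organoid comparisons and 3 age comparisons (columns). Red is higher and blue lower in the group named first, with colours capped at 1 and -1, black dots mark an adjusted p under 0.05, and grey marks a gene absent from the inner ear table. KD stands for the RBM25 knockdown and EJC for the exon junction complex, and Rbm24 and Rbm20 are red and Rbm11 blue in all 3 columns of knockdown organoids against organoids without it.

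The largest called changes in organoids were those of Rbm24, Rbm20 and Rbm11, which are among the 7 tested members of a group named tissue-restricted regulators here. That group also holds Rbm45, at 18.2 ± 0.486 FPKM in control organoids, and restriction to tissues was not measured. With the knockdown 2 of these 7 were higher, beside 24.4% of all genes tested, and 2 lower, beside 28.2% of all. As a group their shares were thus near those of all genes. Rbm24 (chr13:46418102-46431099, plus strand) stood at 36.3, 38.1 and 31.3 CPM with the knockdown and TNF, 66.5, 39.2 and 42.5 CPM with the knockdown, 11.6, 11.5 and 17.7 CPM with TNF and 17.7, 17.0 and 15.4 CPM in controls. Every knockdown library was above every library without it, and knockdown replicate 1 was the highest. The knockdown raised Rbm24 2.96-fold (log2 1.56 ± 0.23, adjusted p = 0.000374) and, under TNF, 2.59-fold (log2 1.37 ± 0.24, adjusted p = 0.000988). TNF did not move it past the threshold, with log2 -0.30 ± 0.24 against controls and -0.49 ± 0.22 on the knockdown (adjusted p = 0.105).

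Markers of hair cells, where RBM24 is known to act, moved in the same samples. Of a list of 10 hair cell markers, 9 were called higher and 1, Slc26a5, lower with the knockdown, and 8 higher and 1 lower with the knockdown under TNF. Their summed level was 250.9 to 336 CPM with the knockdown and TNF, 379 to 549 CPM with the knockdown, 129 to 171 CPM with TNF and 168 to 182 CPM in controls. No marker of the list was at 0 in all libraries. In bulk RNA a change in the share of a cell type and a change in RNA per cell cannot be told apart, and the part of hair cells in the Rbm24 values was not tested.

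Markers of other cell types differed with the knockdown too. Of 6 markers of dividing cells, 6 were higher with the knockdown, at a summed level of 14.2 to 18.9 CPM against 1.97 to 3.00 CPM in controls. Of 5 neuron markers tested 4 were higher and 0 lower, at 32.4 to 49.8 CPM against 20.5 to 22.1 CPM. Most of that sum was Nefm, at 19.9 ± 6.39 CPM against 12.2 ± 0.804 CPM, and Nefl, at 13.6 ± 2.26 CPM against 6.19 ± 0.124 CPM. Tubb3 stood at 0.642 ± 0.133 CPM against 0.619 ± 0.0528 CPM, and Elavl4 at 0.0486 ± 0.0617 CPM against 0.0767 ± 0.108 CPM. Of 8 supporting cell markers 2 were higher and 4 lower, at 6196 to 6926 CPM against 7085 to 7284 CPM. That sum joined genes moving in opposite directions. Otoa stood at 3279 ± 237 CPM with the knockdown against 5422 ± 54.5 CPM in controls, and Tecta at 3050 ± 226 CPM against 991 ± 32.1 CPM. Of 3 cerebellum and brain glia markers tested 1 was higher and 1 lower, and the list summed to 78.9 to 87.0 CPM against 31.2 to 32.1 CPM. Most of that sum was Aqp4, at 81.3 ± 4.36 CPM with the knockdown against 30.5 ± 0.421 CPM in controls. Calb1 stood at 0.168 ± 0.192 CPM against 0.734 ± 0.193 CPM, and Olig1 at 0 in both groups. With TNF 3 of the 8 supporting cell markers were lower and 0 higher, at 3341 to 3947 CPM against 7085 to 7284 CPM in controls. Most of that sum was Otoa, at 2261 ± 168 CPM with TNF against 5422 ± 54.5 CPM in controls. Tecta stood at 704 ± 103 CPM against 991 ± 32.1 CPM, and Gjb2 at 604 ± 80.4 CPM against 590 ± 10.5 CPM. Of 3 macrophage markers tested 1 was higher with TNF, and the list summed to 2.56 to 3.67 CPM against 1.06 to 1.59 CPM. Aif1 stood at 2.01 ± 0.281 CPM with TNF and at 0 in controls. Cd68 stood at 1.12 ± 0.301 CPM against 1.31 ± 0.264 CPM, and Csf1r at 0 in both groups. The part of these cells in the values of the RBM genes was not tested.

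Rbm20 (chr19:53660989-53867083, plus strand), best known for the splicing of titin in heart muscle, was raised by each treatment. It stood at 13.0, 12.3 and 14.1 CPM with the knockdown and TNF, 6.30, 7.91 and 7.58 CPM with the knockdown, 9.27, 8.19 and 12.0 CPM with TNF and 4.44, 3.32 and 5.95 CPM in controls. Libraries with both treatments were all the highest and the control libraries all the lowest, while those with 1 treatment lay between. The change was 0.67 ± 0.18 for the knockdown (adjusted p = 0.00584), 1.10 ± 0.18 for TNF (adjusted p = 9.91e-05) and 1.53 ± 0.18 for both against controls (adjusted p = 1.68e-06), a 2.88-fold rise. The interaction of Rbm20 was -0.24 ± 0.25 (95% interval -0.73 to 0.25) and did not pass. Under TNF the knockdown raised it by 0.43 ± 0.17 (adjusted p = 0.0454), and that call was lost when any library but TNF replicate 3 was left out (adjusted p up to 0.179). Of 8 skeletal muscle markers 2 passed the filter and neither was called with the knockdown or with TNF alone. One of these, the titin gene Ttn, was higher with both treatments, at 0.627 ± 0.154 CPM against 0.183 ± 0.0431 CPM in controls (adjusted p = 0.0067) and 0.195 ± 0.0284 CPM with TNF (adjusted p = 0.00993). The list summed to 1.48 to 1.82 CPM with both treatments against 0.589 to 1.502 CPM in controls.

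Rbm11 (chr16:75592844-75602825, plus strand), a splicing regulator described in brain and testis, was at low levels and fell furthest. It stood at 0.241, 0.460 and 0.189 CPM with the knockdown and TNF, 0.312, 0.418 and 0.295 CPM with the knockdown, 1.32, 1.17 and 0.917 CPM with TNF and 2.35, 1.59 and 1.56 CPM in controls. All 6 knockdown libraries were below the 6 others, and all TNF libraries were below all controls. The knockdown changed it by -2.41 ± 0.35 (adjusted p = 1.25e-05), and by -1.93 ± 0.36 under TNF (adjusted p = 0.000211). TNF alone gave -0.69 ± 0.31 and did not pass in edgeR (adjusted p = 0.0769), although limma-trend on log2(FPKM + 1) called it (adjusted p = 0.0148).

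Rbm47, an RNA-binding cofactor of APOBEC1 editing, stood at 42.5, 45.2 and 43.4 CPM with the knockdown, against 55.7, 51.7 and 52.6 CPM in controls (log2 -0.29 ± 0.09, adjusted p = 0.0126). The groups did not overlap, but the call was lost without control replicate 1 or knockdown replicate 1 (adjusted p up to 0.0759). Rbm38, a p53 target in human and mouse that acts on the stability of p21 mRNA, stood at 4.97, 5.52 and 5.55 CPM with both treatments, 3.69, 3.79 and 4.75 CPM with the knockdown, 6.40, 5.56 and 6.76 CPM with TNF and 5.22, 5.26 and 3.91 CPM in controls. TNF raised it by 0.38 ± 0.15 against controls (adjusted p = 0.0476) and by 0.39 ± 0.15 on the knockdown (adjusted p = 0.0452), and these calls were lost in 4 of 6 and 5 of 6 fits with 1 library left out (adjusted p up to 0.221 and 0.158). The kept fits were those without TNF replicate 2 or control replicate 2 for the first and without knockdown replicate 3 for the second.

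Rbm38 can be set beside a list of 10 other p53 targets. With the knockdown 8 of the 10 were higher and 0 lower, among them Phlda3 at 68.2 ± 3.89 CPM against 27.7 ± 1.58 CPM in controls (adjusted p = 5.37e-10) and Eda2r, a death receptor, at 12.0 ± 0.314 CPM against 5.70 ± 0.354 CPM (adjusted p = 3.15e-08). Rbm38 itself did not pass with the knockdown (log2 -0.24 ± 0.16, adjusted p = 0.214). With TNF 7 of the 10 were higher and 0 lower, including the p21 gene Cdkn1a at 80.4 ± 9.05 CPM against 43.6 ± 0.411 CPM in controls. The lists named here and below were chosen with results of these data known, so their counts describe these libraries. Beside any such organoid count, 24.4% of all genes tested were higher and 28.2% lower with the knockdown. With TNF the shares of all genes were 23.3% and 24.2%.

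**Figure D4:**
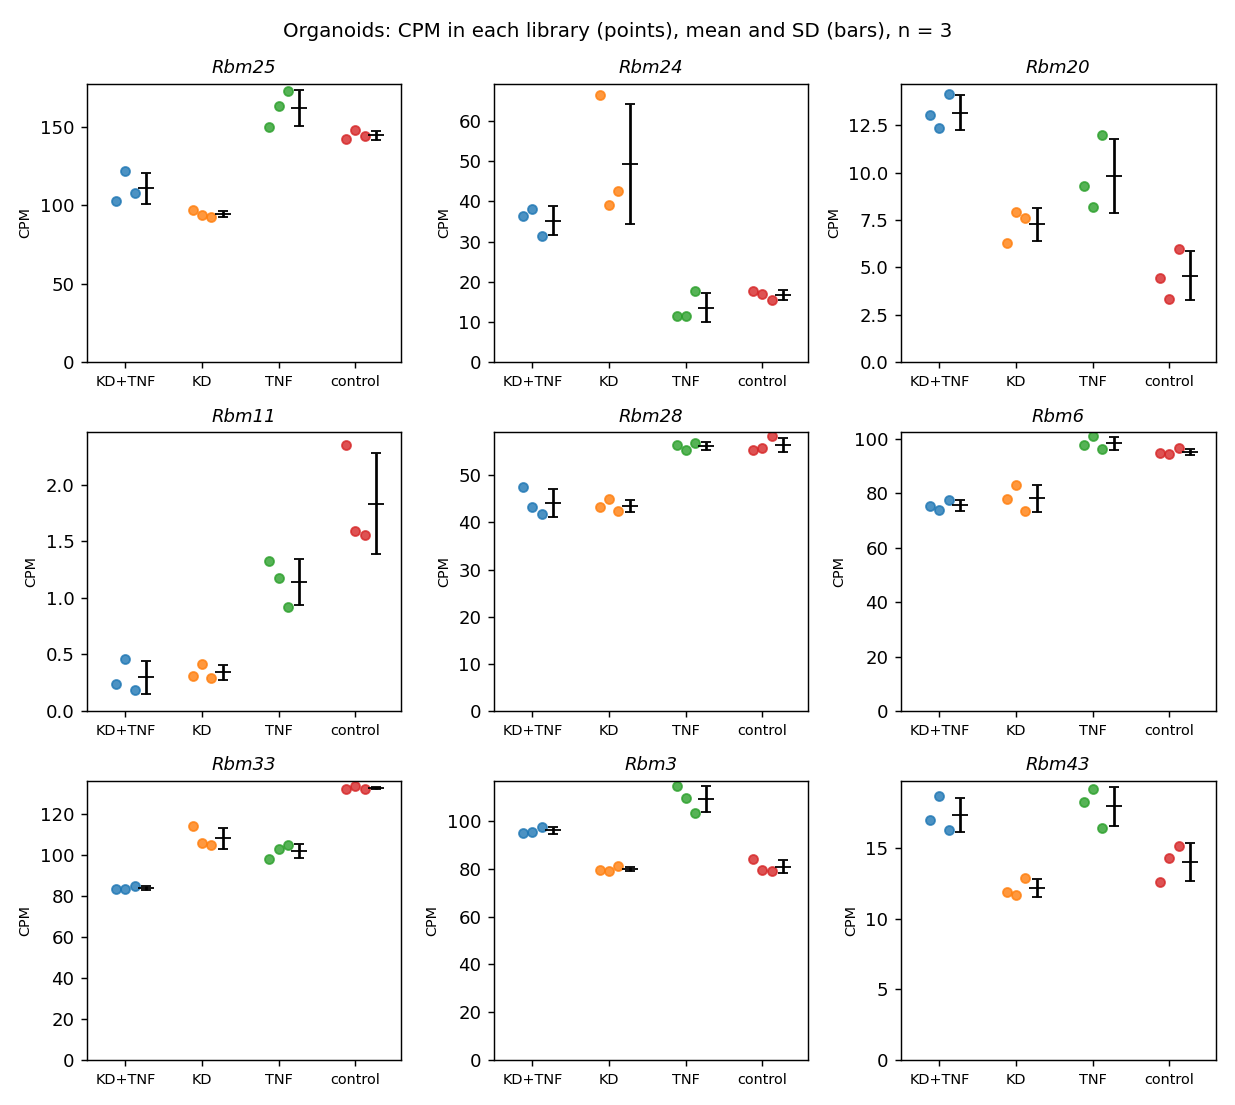
CPM of Rbm25 and 8 other RBM genes in each organoid library (points), with the group mean and SD (bars, n = 3), for the knockdown with TNF, the knockdown (KD), TNF and control. Rbm25 is lower and Rbm24 higher in every knockdown library than in every other, Rbm20 is highest with both treatments, and Rbm33 is lowest with both.

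Of the 4 splicing regulators with OCRE or G-patch domains, Rbm5 and Rbm6 fell with the knockdown, and Rbm10 and Rbm17 were not called for it. Rbm5, which affects splicing of apoptosis genes, stood at 232, 226 and 231 CPM with both treatments, 262, 267 and 258 CPM with the knockdown, 276, 278 and 268 CPM with TNF and 300.4, 306 and 316 CPM in controls. Each treatment lowered it, with a log2 change of -0.23 ± 0.04 for the knockdown (adjusted p = 0.00011), -0.16 ± 0.04 for TNF (adjusted p = 0.00248) and -0.42 ± 0.04 for both (adjusted p = 4.94e-08). Its neighbour Rbm6 stood at 75.3, 73.9 and 77.7 CPM with both treatments, 77.9, 83.2 and 73.4 CPM with the knockdown, 97.8, 101 and 96.2 CPM with TNF and 94.7, 94.5 and 96.6 CPM in controls. Rbm6 thus fell with the knockdown (log2 -0.29 ± 0.05, adjusted p = 8.38e-05), and with TNF alone it changed by 0.05 ± 0.05, which did not pass.

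Neither of the other members passed for the knockdown or for TNF alone. Rbm17, also called SPF45, which recognises 3′ splice sites, stood at 60.02, 57.7 and 59.9 CPM with both treatments, against 52.97, 49.8 and 51.9 CPM with the knockdown (log2 0.20 ± 0.05, adjusted p = 0.00454). Rbm10, an X-linked splicing regulator, stood at 72.1, 68.0 and 70.7 CPM with both treatments, against 80.2, 81.3 and 77.0 CPM in controls (log2 -0.18 ± 0.05, adjusted p = 0.00422).

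Of the 5 spliceosome and exon junction members, 3 fell with the knockdown, which lowered 28.2% of all genes tested. Rbm48, which takes part in splicing of minor (U12-type) introns, stood at 9.90, 10.1 and 10.6 CPM with both treatments, 11.3, 9.08 and 9.08 CPM with the knockdown, 12.9, 13.8 and 14.0 CPM with TNF and 15.0, 14.4 and 13.7 CPM in controls. Every knockdown library lay below every other library. The change was -0.55 ± 0.10 without TNF (adjusted p = 0.000112) and -0.41 ± 0.10 with it (adjusted p = 0.00178). Rbm22 (log2 -0.13 ± 0.05, adjusted p = 0.0483), which helps to activate the spliceosome, and Rbm42 (log2 -0.14 ± 0.06, adjusted p = 0.0482) passed narrowly, and both calls were lost when any of the 6 libraries but control replicate 2 was left out (adjusted p up to 0.164 and 0.167).

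TNF lowered Rbm22 and, on the knockdown, raised Rbm42. Rbm22 stood at 48.3, 54.3 and 54.1 CPM with TNF, against 58.8, 56.8 and 60.3 CPM in controls (log2 -0.17 ± 0.05, adjusted p = 0.0152). Without TNF replicate 1, the lowest, the change of Rbm22 was -0.09 and did not pass (adjusted p = 0.171), and it was also lost without control replicate 3 (adjusted p = 0.0675). Rbm42 stood at 71.8, 62.2 and 74.3 CPM with both treatments, against 58.1, 57.6 and 58.9 CPM with the knockdown (log2 0.26 ± 0.06, adjusted p = 0.00151). Rbm8a, a core protein of the exon junction complex, stood at 80.7, 77.9 and 73.8 CPM with both treatments, against 66.2, 64.6 and 66.8 CPM with the knockdown (log2 0.23 ± 0.05, adjusted p = 0.000909). Rbm41 was not called in any comparison and stood between 12.2 and 16.9 CPM in all organoid libraries.

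Other exon junction and decay factors, a list of 11, gave 2 higher and 5 lower with the knockdown, and 3 higher and 3 lower with TNF. Magoh, the partner of RBM8A, stood at 36.3 ± 4.18 CPM with the knockdown against 29.6 ± 2.22 CPM in controls (adjusted p = 0.00262). Upf3b, a decay factor, stood at 42.0 ± 2.70 CPM against 51.6 ± 2.01 CPM (adjusted p = 0.00206).

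The 3 nucleolar members were called lower with the knockdown, which lowered 28.2% of all genes tested, and Rbm34 passed only narrowly. Rbm19, which takes part in rRNA processing, stood at 16.6, 16.7 and 17.7 CPM with both treatments, 14.2, 12.1 and 14.3 CPM with the knockdown, 19.9, 22.3 and 20.1 CPM with TNF and 20.7, 18.1 and 17.98 CPM in controls. It changed by -0.48 ± 0.09 with the knockdown (adjusted p = 0.000132) and by -0.29 ± 0.09 with the knockdown under TNF (adjusted p = 0.00799), while TNF on the knockdown gave 0.33 ± 0.09 (adjusted p = 0.00497). An antisense gene covers 14.6% of its exon bases. Rbm28, whose yeast relative acts in the large ribosomal subunit, stood at 47.5, 43.3 and 41.8 CPM with both treatments, 43.2, 45.0 and 42.4 CPM with the knockdown, 56.4, 55.3 and 56.9 CPM with TNF and 55.4, 55.8 and 58.2 CPM in controls. Its 2 knockdown groups lay below its 2 others without overlap, at -0.38 ± 0.05 (adjusted p = 1.07e-05) and -0.35 ± 0.05 (adjusted p = 2.81e-05), and TNF gave -0.01 ± 0.05.

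Rbm34, the other nucleolar member, stood at 24.3, 29.5 and 28.2 CPM with both treatments, 22.6, 19.4 and 20.9 CPM with the knockdown, 28.6, 27.1 and 28.2 CPM with TNF and 23.9, 23.9 and 23.8 CPM in controls. TNF raised it by 0.23 ± 0.08 against controls (adjusted p = 0.0189; lost without control replicate 3 at 0.052) and by 0.39 ± 0.08 on the knockdown (adjusted p = 0.000438). Its fall with the knockdown (-0.19 ± 0.08, adjusted p = 0.0479) was lost when any library but knockdown replicate 1 was left out (adjusted p up to 0.203). Among 12 other nucleolar rRNA factors, TNF raised all 12, beside 23.3% of all genes tested without the knockdown and 22.8% with it. The knockdown alone raised 3 of the 12 and lowered 4. Npm1, a nucleolar chaperone, stood at 316 ± 5.12 CPM with TNF against 195 ± 5.85 CPM in controls (adjusted p = 5.68e-10), and Nop14, which acts on the small subunit, at 29.6 ± 2.17 CPM with the knockdown against 36.2 ± 0.878 CPM (adjusted p = 0.000529).

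Rbm3 (chrX:8138975-8145880, minus strand), a protein induced by mild cold, was raised by TNF. It stood at 95.2, 95.5 and 97.6 CPM with both treatments, 79.7, 79.2 and 81.0 CPM with the knockdown, 115, 109 and 103 CPM with TNF and 84.0, 79.7 and 79.1 CPM in controls. TNF libraries were the highest, those with both treatments came next, and the other 2 groups overlapped. The TNF effect was 0.43 ± 0.05 (adjusted p = 4.56e-07) and, on the knockdown, 0.27 ± 0.05 (adjusted p = 0.000146). With TNF present the knockdown lowered it (log2 -0.18 ± 0.05, adjusted p = 0.00286), and without TNF the change was -0.02 ± 0.05 and did not pass. The pseudogene Rbm3-ps, whose reads cannot be told with certainty from those of Rbm3, stood at 4.94, 5.09 and 4.89 CPM with TNF, against 3.58, 2.48 and 2.91 CPM in controls (log2 0.73 ± 0.16, adjusted p = 0.00114). Its rise with TNF on the knockdown (0.53 ± 0.16, adjusted p = 0.0115) was lost without knockdown replicate 2 (adjusted p = 0.0524).

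Cirbp, the other cold-inducible RNA-binding protein of this type, has no RBM number. It stood at 136 ± 3.99 CPM with TNF against 175 ± 8.94 CPM in controls (log2 -0.37 ± 0.05, adjusted p = 7.11e-06), and at 114 ± 5.75 CPM with the knockdown against the same controls (log2 -0.62 ± 0.05, adjusted p = 8.23e-09). Of 13 related genes without a number that were tested, 4 were higher and 4 lower with the knockdown. Rbms3 stood at 205 ± 11.2 CPM against 99.7 ± 5.28 CPM in controls (log2 1.04 ± 0.06, adjusted p = 6.87e-11), and Rbmx, an X-linked splicing factor, at 91.5 ± 2.10 CPM against 128 ± 0.521 CPM (log2 -0.49 ± 0.04, adjusted p = 3.17e-08).

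Among the remaining members, Rbm33 (chr5:28316836-28419244, plus strand) was lowered by both treatments. In human cells RBM33 is known as a cofactor of the m6A demethylase ALKBH5. The gene stood at 83.5, 83.3 and 84.8 CPM with both treatments, 114, 106 and 105 CPM with the knockdown, 98.2, 103 and 105 CPM with TNF and 132, 133 and 132 CPM in controls. The control libraries were all above, and those with both treatments all below, every other library. It changed by -0.30 ± 0.04 with the knockdown (adjusted p = 2.05e-05), by -0.38 ± 0.04 with TNF (adjusted p = 1.30e-06) and by -0.66 ± 0.05 with both (adjusted p = 4.23e-10). The interaction was 0.01 ± 0.06 (95% interval -0.11 to 0.14).

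Rbm43 stood at 17.0, 18.7 and 16.3 CPM with both treatments, 11.9, 11.7 and 12.9 CPM with the knockdown, 18.3, 19.2 and 16.5 CPM with TNF and 12.6, 14.3 and 15.2 CPM in controls. TNF raised it by 0.36 ± 0.09 against controls (adjusted p = 0.00332) and by 0.51 ± 0.09 on the knockdown (adjusted p = 0.000163), with no overlap between the groups. Its upstream sequence, printed above, is the one of the 3 with matches to the interferon form.

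Rbm12 and its relatives Rbm12b1 and Rbm12b2 were lower with the knockdown in most tests. Rbm12 stood at 36.2, 40.0 and 39.0 CPM with both treatments, 37.5, 38.2 and 36.7 CPM with the knockdown, 46.4, 49.2 and 46.4 CPM with TNF and 45.5, 43.5 and 45.1 CPM in controls, a change of -0.25 ± 0.05 with the knockdown (adjusted p = 0.000602) and of -0.30 ± 0.05 under TNF (adjusted p = 0.000118). Its exons overlap Gm28036 over 32.6% of their bases. Rbm12b1 stood at 8.56, 7.54 and 7.22 CPM with both treatments, 10.7, 10.9 and 8.46 CPM with the knockdown, 9.52, 10.8 and 10.9 CPM with TNF and 13.1, 11.5 and 11.5 CPM in controls. It passed in the comparison under TNF (log2 -0.42 ± 0.12, adjusted p = 0.00538) and not in that without it (log2 -0.26 ± 0.11, adjusted p = 0.0609). TNF on the knockdown lowered it (log2 -0.37 ± 0.12, adjusted p = 0.0146), a call lost without replicate 3 of both treatments or knockdown replicate 1 or 2 (adjusted p up to 0.0735).

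Its near copy Rbm12b2 stood at 20.0, 24.4 and 21.7 CPM with both treatments, 24.2, 22.6 and 19.6 CPM with the knockdown, 25.1, 25.6 and 28.5 CPM with TNF and 30.6, 26.4 and 27.8 CPM in controls. The change of Rbm12b2 with the knockdown was -0.35 ± 0.09 (adjusted p = 0.00283). Under TNF it was -0.26 ± 0.09 (adjusted p = 0.0203), which was lost without TNF replicate 3 or replicate 1 of both treatments (adjusted p up to 0.0993).

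The RNA decay adaptors were mostly not called. Rbm27, of the poly(A) exosome targeting pathway in human cells, stood at 41.5, 46.7 and 46.4 CPM with both treatments, against 54.4, 52.7 and 57.1 CPM with TNF (log2 -0.29 ± 0.07, adjusted p = 0.00142), and without TNF the knockdown gave -0.14 ± 0.07 (adjusted p = 0.0806). Its relative Rbm26 and Rbm7, of the nuclear exosome targeting complex, did not pass, with -0.15 ± 0.07 and -0.09 ± 0.07 for the knockdown. Rbm7 came near the threshold with TNF (log2 0.16 ± 0.07, adjusted p = 0.0533). Of 15 exosome genes and adaptors tested, 1 was higher and 3 lower with the knockdown, with Mtrex, the exosome's helicase, at 75.4 ± 2.99 CPM against 65.6 ± 2.71 CPM in controls (adjusted p = 0.00333), and 6 were higher and 2 lower with TNF.

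The m6A writer subunits Rbm15 and Rbm15b were not called in any comparison. Rbm15 changed by 0.10 ± 0.10 with the knockdown (95% interval -0.10 to 0.30) and Rbm15b by -0.07 ± 0.06 (95% interval -0.20 to 0.05). Among 6 other genes of the writer complex 0 were higher and 2 lower with the knockdown, with the catalytic subunit Mettl3 at 29.2 ± 1.90 CPM against 35.7 ± 1.35 CPM in controls (log2 -0.29 ± 0.07, adjusted p = 0.00162), and 2 were higher and 0 lower with TNF.

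The splicing coregulators Rbm4, Rbm4b, Rbm14 and Rbm39 were not called for the knockdown or for TNF. Rbm39, a U2AF-related splicing factor and the member with the most counts, changed by -0.05 ± 0.05 with the knockdown (95% interval -0.15 to 0.05). Rbm39 and Rbm4b were called lower with both treatments against controls (-0.12 ± 0.05, adjusted p = 0.0474, and -0.21 ± 0.08, adjusted p = 0.0252), calls lost in 5 of 6 and 4 of 6 fits with 1 library left out (adjusted p up to 0.253 and 0.149). The Rbm39 value was -0.07 without replicate 3 of both treatments. Rbm4 had 0.590 to 0.963 CPM with the knockdown, against 0.824 to 1.72 CPM in controls, and its 95% interval, -1.13 to 0.17, was wide.

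Across all 9 comparisons 27 members were called at least once. The matching share of all genes was not counted, and single comparisons called from 1.56% to 60.7% of all genes tested. The 10 that were never called were Rbm15, Rbm15b, Rbm18, Rbm26, Rbm3os, Rbm4, Rbm41, Rbm45, Rbm46 and Rbm7. Rbm46, a germ cell protein, had 0.374, 1.22 and 0.162 CPM with both treatments and 0.138, 0.391 and 0.222 CPM with TNF, a fitted difference of 1.21 ± 0.62 that did not pass (adjusted p = 0.111). Rbm45 changed by 0.08 ± 0.06 (95% interval -0.03 to 0.20) and Rbm18 by -0.04 ± 0.07 (95% interval -0.18 to 0.09) with the knockdown.

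In the inner ear few members changed with age. Between 20 and 3 months Rbm47, Rbm14, Rbm27 and Rbm12 were higher at 20 months, 4 of 36 beside 12% of all genes tested, and Rbm10 was lower, 1 of 36 beside 10.7% of all, and 22.7% of all genes were called in either direction. The median change of the members was 0.06, against 0.01 over all 15525 genes. Between 11 and 3 months Rbm3 was lower, 1 of 36 beside 0.58% of all, and 0 were higher, beside 0.979% of all, with 1.56% of all genes called in either direction. At an unadjusted p under 0.05 that comparison held 5 members. Between 20 and 11 months Rbm47 and Rbm3 were higher, 2 of 36 beside 7.87% of all, and Rbm20 was lower, 1 of 36 beside 7.9% of all, and 15.8% of all genes were called in either direction. Rbm25 itself stood at 122 to 156, 121 to 142 and 125 to 142 CPM at 3, 11 and 20 months and was not called. These comparisons share mice, since each age enters 2 of them.

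Rbm47 (chr5:66016549-66151954, minus strand) stood at 12.6, 13.7, 19.3 and 17.2 CPM at 3 months, 18.05, 13.8, 14.4 and 15.6 CPM at 11 months and 22.8, 27.2, 24.5 and 23.6 CPM at 20 months. All 4 mice of 20 months were above all 8 younger mice. The change was 0.64 ± 0.13 between 20 and 3 months (adjusted p = 0.00527) and 0.66 ± 0.13 between 20 and 11 months (adjusted p = 0.0106), and both calls remained in every fit with 1 library left out. In the organoid table, which was normalized separately, Rbm47 was at 53.3 ± 2.09 CPM in controls (SD, n = 3).

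Rbm3 was lowest at 11 months. It stood at 58.0, 62.7, 54.1 and 54.9 CPM at 3 months, 51.0, 47.5, 39.7 and 41.9 CPM at 11 months and 65.9, 66.0, 63.6 and 66.8 CPM at 20 months. The ages did not overlap. Its fall between 11 and 3 months (-0.35 ± 0.08, adjusted p = 0.045) was lost when any mouse but replicate 1 of 11 months was left out (adjusted p up to 0.149), while its rise between 20 and 11 months (0.54 ± 0.08, adjusted p = 0.00465) remained. Between 20 and 3 months it did not pass (log2 0.19 ± 0.08, adjusted p = 0.0953). Cirbp stood at 60.03 ± 2.84 CPM at 20 months against 93.1 ± 6.97 CPM at 3 months (log2 -0.63 ± 0.14, adjusted p = 0.00672).

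**Figure D5:**
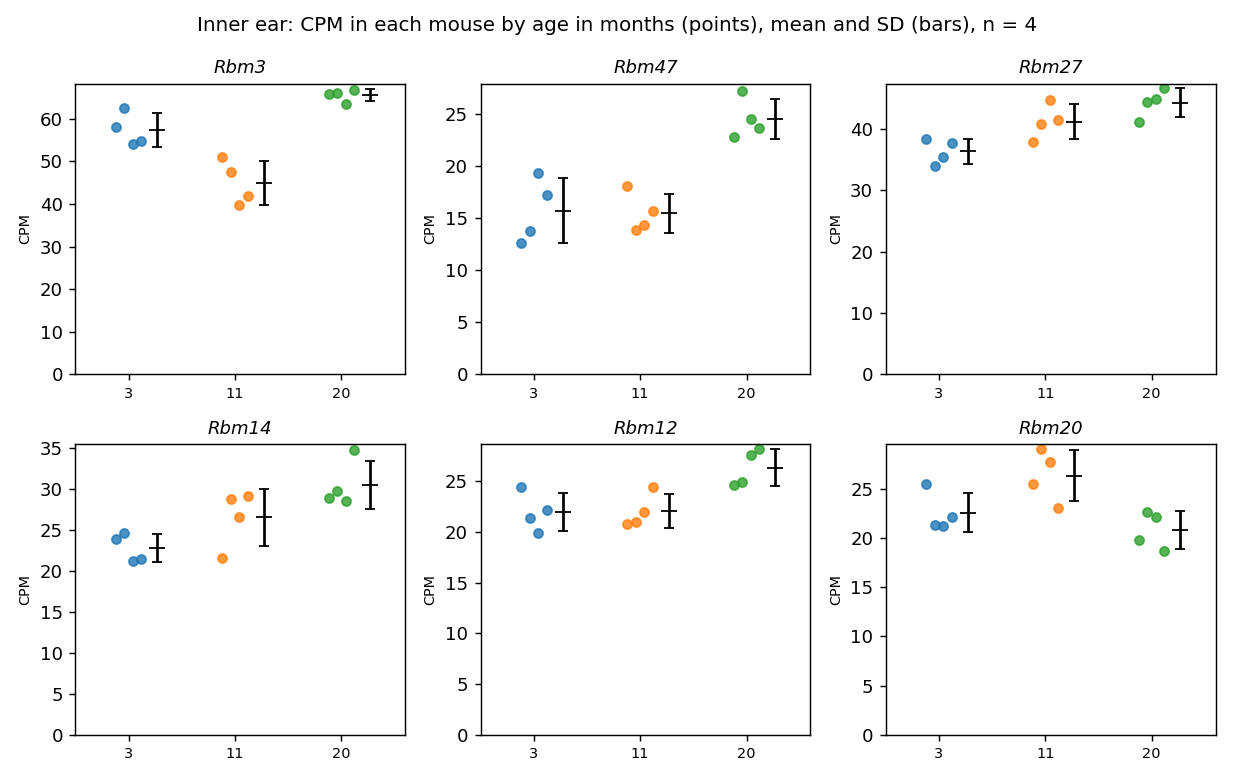
CPM of 6 RBM genes in each mouse (points) at 3, 11 and 20 months, with the mean and SD (bars, n = 4). Rbm47 is higher in all mice of 20 months than in all younger mice, and Rbm3 is lowest at 11 months.

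Rbm14, a paraspeckle protein and coactivator, stood at 28.9, 29.8, 28.5 and 34.7 CPM at 20 months, against 23.9, 24.6, 21.3 and 21.5 CPM at 3 months (log2 0.42 ± 0.10, adjusted p = 0.0128), and its exons overlap Gm21992 over 18.6% of their bases. Rbm27 stood at 41.1, 44.4, 44.9 and 46.8 CPM at 20 months, against 38.4, 33.9, 35.5 and 37.8 CPM at 3 months (log2 0.28 ± 0.07, adjusted p = 0.0121). In both genes every mouse of 20 months was above every mouse of 3 months, and both calls remained in every fit with 1 library left out.

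The other age calls were less steady. Rbm12 stood at 24.6, 24.9, 27.5 and 28.2 CPM at 20 months, against 24.4, 21.4, 19.9 and 22.1 CPM at 3 months (log2 0.26 ± 0.09, adjusted p = 0.0431), and failed in the 6 fits that dropped 3-month mouse 2, 3 or 4 or 20-month mouse 1, 3 or 4 (adjusted p up to 0.114). Rbm10 stood at 57.5, 58.9, 56.3 and 65.1 CPM at 20 months, against 67.6, 72.4, 64.9 and 68.4 CPM at 3 months (log2 -0.20 ± 0.06, adjusted p = 0.0292). The Rbm10 groups overlapped by 1 mouse, and the call failed in the fits that dropped 3-month mouse 2 or 4 or 20-month mouse 1, 2 or 3 (adjusted p up to 0.0815). Rbm20 stood at 19.8, 22.6, 22.2 and 18.7 CPM at 20 months, against 25.5, 29.0, 27.7 and 23.1 CPM at 11 months (log2 -0.34 ± 0.10, adjusted p = 0.0339), and failed in the fits that dropped 11-month mouse 1, 2 or 3 or 20-month mouse 1 or 4 (adjusted p up to 0.0939).

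Markers of several cell types differed between the ages in the same samples. Beside the counts for 20 against 3 months, 12% of all genes tested were higher and 10.7% lower. Of 8 macrophage markers 8 were higher at 20 than at 3 months, with a summed level of 246 to 456 CPM at 20 months against 128 to 166 CPM at 3 months. Of 8 neuron markers 0 were higher and 5 lower, at 4521 to 7015 CPM against 6772 to 9023 CPM. Of 8 skeletal muscle markers 0 were higher and 4 lower, at 23.7 to 32.5 CPM against 43.9 to 149 CPM. Markers of mucosal epithelium summed to 115 to 1188 CPM against 148 to 539 CPM, with 1 of 4 tested lower. Most of the mucosal sum was Bpifa1, at 597 ± 455 CPM against 205 ± 157 CPM, while Bpifb1 stood at 0.239 ± 0.167 CPM against 3.04 ± 2.73 CPM. Of 7 cerebellum and brain glia markers tested 1 was higher and 0 lower, at 163 to 1249 CPM against 140 to 412 CPM. Most of that sum was Gfap, at 432 ± 282 CPM against 148 ± 80.5 CPM, and Pcp2 stood at 0.0860 ± 0.0690 CPM against 0.114 ± 0.168 CPM.

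At 11 months, against 3 months, 4 of 8 macrophage markers were higher and 0 lower, at 261 to 299.9 CPM against 128 to 166 CPM. Cerebellum and brain glia markers summed to 783 to 964 CPM against 140 to 412 CPM, with 1 of 7 tested higher. Neither list's summed levels overlapped between the ages. Most of the glia list's sum was Gfap, at 499 ± 50.5 CPM against 148 ± 80.5 CPM. Calb1 stood at 164 ± 18.6 CPM against 20.5 ± 5.20 CPM. Car8 stood at 4.98 ± 2.72 CPM against 5.37 ± 1.72 CPM, and Pcp2 at 0.0354 ± 0.0526 CPM against 0.114 ± 0.168 CPM. Muscle markers summed to 17.0 to 34.3 CPM against 43.9 to 149 CPM, with 5 of 8 lower. Mucosal markers summed to 94.1 to 163 CPM against 148 to 539 CPM, with 1 of 4 tested lower. Of these, Bpifa1 stood at 8.78 ± 13.9 CPM against 205 ± 157 CPM, and Foxj1 at 36.1 ± 4.85 CPM against 33.3 ± 1.73 CPM. At 20 months, against 11 months, 6 of 8 neuron markers were lower and 0 higher, at 4521 to 7015 CPM against 8021 to 9202 CPM, while 3 of 8 macrophage markers and 3 of 8 muscle markers were higher. No marker of these lists was at 0 in all libraries. The part of these cells in the values of Rbm47, Rbm3, Rbm14, Rbm27, Rbm12, Rbm10 and Rbm20 was not tested.

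None of the nucleolar members was called with age, nor were any of the 12 other nucleolar factors between 20 and 3 months. Rbm24, the member most raised by the knockdown in organoids, stood at 12.1, 7.04, 7.59 and 10.5 CPM at 3 months, 11.9, 8.08, 8.52 and 7.36 CPM at 11 months and 7.89, 4.77, 7.88 and 9.63 CPM at 20 months, and its change between 20 and 3 months (-0.30 ± 0.23, 95% interval -0.76 to 0.16) did not pass. Rbm11 stood at 3.86, 1.99, 4.29 and 2.01 CPM at 3 months, 3.15, 2.42, 2.51 and 3.57 CPM at 11 months and 1.90, 2.19, 2.11 and 2.68 CPM at 20 months, with overlapping ages. Rbm33 changed by 0.01 ± 0.13 between 20 and 3 months (95% interval -0.23 to 0.26). Of 14 related genes without a number that were tested, 1 was higher and 3 lower at 20 than at 3 months. Beside them, 12% of all genes tested were higher and 10.7% lower. Among the 14, Rbfox1 stood at 55.2 ± 6.25 CPM against 80.5 ± 12.2 CPM (adjusted p = 0.00356). Rbfox3, a neuronal splicing regulator, stood at 33.3 ± 8.67 CPM against 51.9 ± 4.11 CPM (adjusted p = 0.00786).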

How the data were processed

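The deposited count tables hold whole-number counts of reads per gene, and the deposited FPKM tables hold values in FPKM, which the authors had adjusted for transcript length and sequencing depth. Tools named by the submitters' processing notes are HISAT2, HTSeq, Trimmomatic and DESeq2, with the build mm10, and no version or setting is stated there. Per the labels' protocols the library kit was unstranded. The genes were all those whose symbol is Rbm followed by a digit, other than Rbm25. The members, roles and gene lists were chosen with earlier results of these data known.

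Each count table was fitted whole in edgeR 4.0.16 (R 4.3.3) with a coefficient for each group, filterByExpr, TMM normalization and the robust quasi-likelihood F-test, two-sided, with Benjamini-Hochberg adjustment over all genes tested (15888 organoid, 15525 inner ear) and 0.05 as the threshold. The pipeline was tested on simulated data. FPKM levels are the deposited values. Per-library values are given for Rbm25 and for the called members in order of fold change, up to 8 in each direction per comparison, and for lists up to 3 genes with the smallest p. Coordinates are those of RefSeq (GRCm38.p6), matched for all 38 members, and exon overlaps those of GENCODE vM21. There were 9 comparisons. Alternatives were a replicate block, fitting only the libraries compared, no filter, DESeq2 size factors, the DESeq2 1.42.0 Wald test, limma-trend 3.58.1 on log2(FPKM + 1) and on log2(FPKM + 0.1), and each library left out.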

Additional observations from a re-analysis of the deposited data

Results flagged for a closer look

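In 3 of 111 groups of 4 mice examined, 1 library stood farther from the other 3 than Dixon's 95% critical value allows, and chance flags about 1 in 20. Rbm4 was at 2.06 CPM in replicate 4 of 20 months, against 0.581 to 0.825 CPM in the other mice of that age. Rbm43 was at 17.9 CPM in replicate 4 of 11 months, against 13.2 to 13.8 CPM in the others. Rbm6 was at 77.1 CPM in replicate 2 of 11 months, against 72.3 to 72.9 CPM in the others. None of these genes was called with age. The organoid groups hold 3 libraries each and were not examined this way.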

How the results depend on the processing

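Of 82 calls of members, 57 remained in every fit run, 59 in every fit with 1 library left out and 63 in every other alternative, and 0 of 330 values reversed while called. The total number of members called, both directions together, stayed within 1.5 times except as follows. Between 20 and 11 months it was 6 with the DESeq2 Wald test in place of 3. Between 20 and 3 months it was 3 in place of 5 when only the libraries compared were fitted. Between 11 and 3 months it was 0 in place of 1 with limma-trend on log2(FPKM + 1) and on log2(FPKM + 0.1). With each library left out in turn the counts ran over 12 to 14 for the knockdown, 12 to 17 for the knockdown under TNF, 6 to 9 for TNF, 10 to 14 for TNF on the knockdown, 17 to 21 for both treatments, 0 to 1 for the interaction, 3 to 5 for 20 against 3 months, 0 to 1 for 11 against 3 months, and 2 to 6 for 20 against 11 months. The count for 20 against 3 months was 3 without mouse 2 of 3 months or mouse 1 or 3 of 20 months, that for 20 against 11 months was 6 without mouse 3 of 20 months, and that for 11 against 3 months was 0 without any mouse but mouse 1 of 11 months. The interaction needs all groups, so no fit of fewer libraries was made for it. By direction, limma-trend on FPKM moved the lower calls by over 1.5 times in the knockdown (3 higher and 8 lower, where edgeR called 2 and 13) and with both treatments (10 and 9, where edgeR called 8 and 14), and it called 0 members lower in each age comparison, where edgeR called 1. Higher calls moved as well between 20 and 11 months, to 4 with limma-trend and 5 with the DESeq2 Wald test, where edgeR called 2. Causes were not tested. Deviations of same-numbered organoid libraries correlated at -0.05 to 0.30 and passed 0.1 in 2 of 18 pairs, and in the inner ear in 3 of 12. Both organoid pairs joined a control with a knockdown library, at 0.298 for replicate 1 and 0.233 for replicate 3, while replicate 2 gave 0.0237. Differently numbered libraries ran from -0.2707 to 0.0879 in the organoids and from -0.2374 to 0.2465 in the inner ear. The lowest organoid values also joined control with knockdown libraries. They were -0.2707 for control replicate 3 with knockdown replicate 1 and -0.248 for control replicate 1 with knockdown replicate 3. Whether replicate numbers pair control with knockdown libraries cannot be told from these values. A replicate block gave 13 calls for the knockdown in place of 15, with 2 higher and 11 lower, and 4 for 20 against 3 months in place of 5. The knockdown calls of Rbm22, Rbm34 and Rbm42 were each lost in at least 5 of the 7 alternatives other than left-out libraries. For genes near 1 CPM, such as Rbm4, Rbm46 and Rbm11, depth limits what can be seen.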
